A study of Arabidopsis thaliana with 12 samples.

Results

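The ABF bZIP and stress NAC factors examined here are 10 transcription factor genes of Arabidopsis thaliana, fixed by name: 5 basic leucine zipper (bZIP) genes, ABF1 (AT1G49720), ABF2 (AT1G45249), ABF3 (AT4G34000), ABF4 (AT3G19290) and ABI5 (AT2G36270), and 5 NAC genes, RD26 (AT4G27410), ANAC019 (AT1G52890), ANAC055 (AT3G15500), NAC062 (AT3G49530) and ATAF1 (AT1G01720). All 10 were present among the 24616 genes of the expression table, and all 10 passed the filter on low values that left 20666 genes for testing. RNA was sequenced from whole seedlings of the cbfs-1 mutant and of the wild type (WT, Col-0), grown for 14 d at 22 °C in long days on half-strength MS medium and then held at 4 °C for 0, 3 or 24 h. Each of the 6 groups had 2 libraries, 12 in all, and nothing in the labels ties a replicate to its own culture or plants, so the p-values rest on library-to-library spread that could be technical in part or whole. The sources used here give neither the lesion carried by cbfs-1 nor the number of lines used.

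The ABF proteins and ABI5 are group A bZIP factors of abscisic acid (ABA) signalling. Once ABA receptors have shut off clade A PP2C phosphatases, SnRK2 kinases phosphorylate them, and they bind the ABA-responsive element (ABRE), whose core is ACGTG, in the promoters of stress genes. NAC factors are a plant-specific family, of which RD26, ANAC019 and ANAC055 are close relatives known from dehydration, ABA and jasmonate responses, ATAF1 is known from drought and senescence, and NAC062 (also called NTL6) is tethered to a membrane and released by cleavage in the cold. The cold pathway of the CBF factors, after which the mutant is named, acts through a different promoter element, the CRT/DRE, whose core is CCGAC.

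The 250 bases upstream of each gene's annotated start were read from the RefSeq TAIR10.1 assembly, and 6 of these promoters are shown. They are those of ABF1, ABI5, ANAC019 and NAC062, which rose in the cold, and of RD26, which came nearest to a genotype difference. ANAC055 is shown because it is the close relative of ANAC019 and lacks the motifs searched. ABF3 and ATAF1 also passed a time comparison, and their windows are not printed. Capitals mark the ABRE core on either strand (ACGTG or its complement CACGT, in the printed strand), the G-box CACGTG, which contains the ABRE core on both strands, and the CRT/DRE core on either strand (CCGAC or GTCGG). Each sequence runs 5′ to 3′ on the strand of its gene, and no annotated gene lies within any of these 6 windows.
ABF1, plus strand, chr1:18399753-18400002: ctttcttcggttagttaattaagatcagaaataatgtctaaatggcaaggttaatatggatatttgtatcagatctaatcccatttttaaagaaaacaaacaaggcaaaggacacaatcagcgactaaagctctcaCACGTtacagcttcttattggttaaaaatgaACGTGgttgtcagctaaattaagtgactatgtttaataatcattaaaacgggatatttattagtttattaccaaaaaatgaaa
ABI5, minus strand, chr2:15207637-15207886: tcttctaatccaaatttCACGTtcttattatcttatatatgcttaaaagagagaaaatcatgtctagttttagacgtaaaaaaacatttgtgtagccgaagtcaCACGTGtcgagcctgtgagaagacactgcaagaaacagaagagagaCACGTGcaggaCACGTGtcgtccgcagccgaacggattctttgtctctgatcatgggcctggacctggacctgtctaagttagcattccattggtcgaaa
RD26, minus strand, chr4:13709171-13709420: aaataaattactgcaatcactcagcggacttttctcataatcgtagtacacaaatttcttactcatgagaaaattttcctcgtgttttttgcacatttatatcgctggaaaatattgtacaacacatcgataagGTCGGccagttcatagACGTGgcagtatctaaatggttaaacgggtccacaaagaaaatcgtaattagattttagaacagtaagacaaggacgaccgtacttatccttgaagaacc
ANAC019, minus strand, chr1:19698483-19698732: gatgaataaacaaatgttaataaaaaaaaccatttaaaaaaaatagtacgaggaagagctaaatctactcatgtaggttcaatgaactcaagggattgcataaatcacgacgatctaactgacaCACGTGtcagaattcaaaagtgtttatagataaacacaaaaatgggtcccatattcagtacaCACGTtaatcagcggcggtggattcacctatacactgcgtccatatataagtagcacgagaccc
ANAC055, plus strand, chr3:5234207-5234456: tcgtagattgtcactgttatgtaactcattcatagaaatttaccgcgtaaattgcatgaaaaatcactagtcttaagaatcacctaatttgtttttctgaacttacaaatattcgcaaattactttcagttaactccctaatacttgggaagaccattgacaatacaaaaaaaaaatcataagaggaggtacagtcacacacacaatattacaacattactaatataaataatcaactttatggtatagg
NAC062, minus strand, chr3:18364960-18365209: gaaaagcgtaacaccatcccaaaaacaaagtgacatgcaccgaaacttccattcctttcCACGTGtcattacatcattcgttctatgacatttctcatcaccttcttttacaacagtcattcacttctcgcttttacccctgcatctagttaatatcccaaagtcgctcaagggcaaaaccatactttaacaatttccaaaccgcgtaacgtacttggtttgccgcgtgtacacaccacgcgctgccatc

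The gene bodies begin at the next base after each window. In TAIR10.1 ABF1 spans chr1:18400003-18402628, ABI5 chr2:15204659-15207636, RD26 chr4:13707192-13709170, ANAC019 chr1:19696923-19698482, ANAC055 chr3:5234457-5236196 and NAC062 chr3:18362443-18364959. The other members are ABF2 at chr1:17165125-17167924, ABF3 at chr4:16295334-16298285, ABF4 at chr3:6687042-6690123 and ATAF1 at chr1:267993-269819.

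The ABRE core was found in 7 of the 10 windows, against 22.9% of the 27443 windows of protein-coding genes. ABI5 held it at 4 separate places, 3 of them G-boxes, ABF1 and ANAC019 held it at 2 places each, and ABF3, ABF4, RD26 and NAC062 at 1 place each. ABF2, ANAC055 and ATAF1 held none of the letters searched. The G-box was in 3 members' windows (ABI5, ANAC019 and NAC062), against 6.49% of all windows, and the CRT/DRE core was in those of ABF4 and RD26, against 11.97% of all windows. Neither CATGTG, a NAC core, present in 11.1% of windows, nor AAATATCT, the evening element of clock-controlled promoters, present in 4.79%, was in any of the 10. These matches describe letters in a fixed window and are not binding sites.

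**Figure D1:**
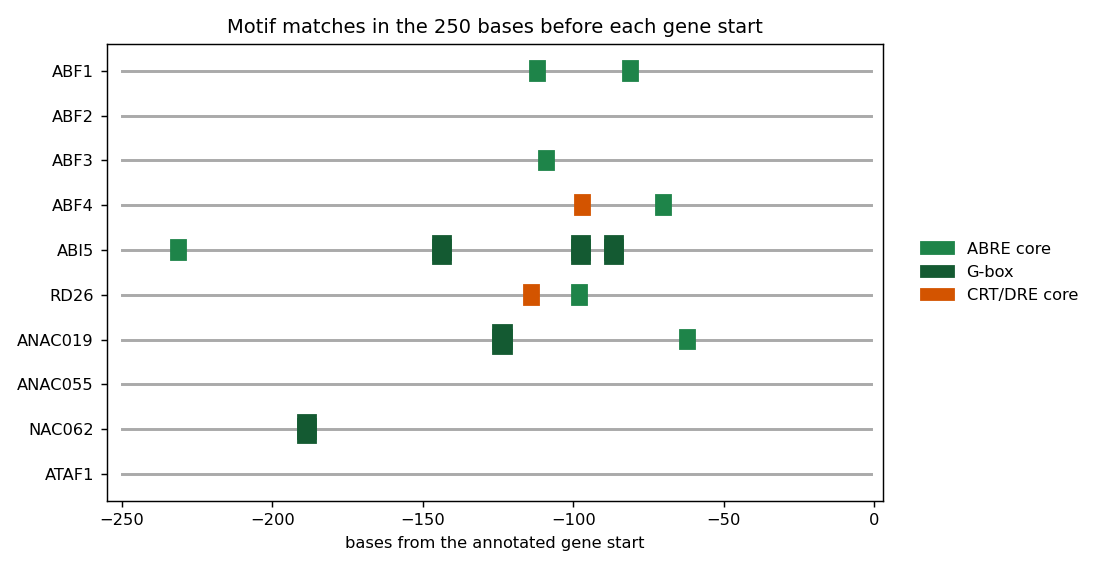
Positions of the motif matches in the 250 bases upstream of each gene's start, 1 row per gene, with distance from the start in bases on the horizontal axis and 1 colour per motif. ABI5 carries the ABRE core at 4 places and ABF2, ANAC055 and ATAF1 carry none.

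Values are normalised read counts, and the 12 libraries held 16849042 to 22800552 reads, so that 3 reads corresponded to 2.46 to 3.28 normalised counts. Leaf transcripts were abundant in every library (RBCS1A, the small Rubisco subunit, at 239100 to 296500) and root transcripts were present (CASP1, of the Casparian strip, at 245 to 618). Seed storage and floral markers were near 0: OLEO1 at 0 to 5.39, CRC at 0 to 13.1 and AP3 at 1.06 to 12.3, with CRA1 at 1.89 to 70.0. Between 0 and 24 h 2 of 3 root markers (CASP1 and LRX1) and 1 of 3 leaf markers (RCA, Rubisco activase) fell in both genotypes, by 0.61 to 1.18 on the log2 scale, and the part of tissue make-up in the 24 h results was not tested. In RNA from whole seedlings, fewer cells of a type and less RNA per cell cannot be told apart. The genes after which the mutant is named were detected in both genotypes at 3 h: CBF1 had 1540 and 2475 normalised counts in cbfs-1 and 1129 and 2023 in WT, CBF2 7570 and 8377 in cbfs-1 and 5093 and 6769 in WT, and CBF3 (DREB1A) 1158 and 1095 in cbfs-1 and 6133 and 7126 in WT. At the other times CBF3 was the higher in cbfs-1. It had 175 and 138 in cbfs-1 and 15.3 and 7.59 in WT at 0 h, and 893 and 799 in cbfs-1 and 404 and 180 in WT at 24 h. The 3 CBF paralogs are near-identical, so their counts are uncertain, and transcript level alone does not check the lesion.

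ABF1 had the widest range of the 10 genes, with a normalised count below 130 in every library at 0 h and above 1300 in every library at 3 and 24 h. In cbfs-1, ABF1 had 99.3 and 52.1 normalised counts at 0 h, 3589 and 1605 after 3 h and 1835 and 1330 after 24 h. In WT, ABF1 had 129 and 56.4 at 0 h, 3964 and 1668 after 3 h and 2819 and 1621 after 24 h. The cold-treated libraries did not overlap with the 0 h libraries in either genotype, while at each time the cbfs-1 and WT ranges overlapped. On the log2(value + 1) scale ABF1 rose at 3 h by 5.04 in cbfs-1 (SE 0.56, adjusted p = 0.000748) and by 4.90 in WT (SE 0.56, adjusted p = 0.000731), which are 32.9-fold and 29.8-fold. At 24 h it was higher than at 0 h by 4.42 in cbfs-1 (adjusted p = 0.000292) and by 4.63 in WT (adjusted p = 0.000204), from limma with Benjamini-Hochberg adjustment over all genes tested. These 4 calls held without any 1 library. Replicate 1 exceeded replicate 2 in 6 of 6 groups, by 1.38 to 2.38 times.

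ABF1 overlaps the 3′ end of AT1G49730 on the other strand by 123 bases, and the sources used here do not give the strand setting of the counting. AT1G49730 had 459 and 411 normalised counts in cbfs-1 at 0 h, 470 and 394 after 3 h and 234 and 224 after 24 h, and in WT 396 and 420 at 0 h, 536 and 459 after 3 h and 204 and 230 after 24 h. It was highest in WT at 3 h, when ABF1 was also highest, and lowest in both genotypes at 24 h, when ABF1 was still high. A further gene annotated on the other strand, AT1G07587, overlaps ABF1 by 620 bases and had no values in these data. Genes on the other strand also overlap ABF4 (AT3G03815, by 2516 bases), ATAF1 (AT1G04043, by 344 bases) and ABF3 (AT4G34020, by 24 bases). AT3G03815 and AT1G04043 likewise had no values. The part of such overlaps in the counts was not tested.

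The other ABF genes, which together with ABF1 are the ABRE-binding activators of vegetative tissue, showed none of this rise. ABF3 had 1233 and 1344 normalised counts in cbfs-1 at 0 h, 872 and 1151 after 3 h and 770 and 587 after 24 h, and in WT 1430 and 1851 at 0 h, 960 and 1331 after 3 h and 1117 and 573 after 24 h. Every 24 h value of ABF3 lay below every 0 h value of the same genotype. ABF3 fell between 0 and 24 h by 0.94 on the log2 scale in cbfs-1 (SE 0.30, adjusted p = 0.0270) and by 1.02 in WT (SE 0.30, adjusted p = 0.0179), and its 3 h differences, −0.36 in cbfs-1 and −0.52 in WT, did not pass the test (adjusted p = 0.543 and 0.335). The ABF3 call at 24 h rested on single libraries: in cbfs-1 it was lost without 0 h replicate 1 (adjusted p = 0.0745), 0 h replicate 2 (0.103) or 24 h replicate 2 (0.152), and in WT without 0 h replicate 2 (0.0986) or 24 h replicate 2 (−0.54 on the log2 scale, adjusted p = 0.132).

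ABF2 (AREB1) and ABF4 (AREB2), both known as master activators of ABRE promoters under osmotic stress, did not pass the test in any of the 6 time comparisons. ABF2 had 454 and 593 normalised counts in cbfs-1 at 0 h, 396 and 431 after 3 h and 548 and 475 after 24 h, and in WT 531 and 729, 387 and 514, and 710 and 488 at the same times. Its values at 3 h lay below those at 0 h in both genotypes without overlap, with log2 differences of −0.33 in cbfs-1 (95% interval −0.84 to 0.18) and −0.48 in WT (−0.98 to 0.03). ABF4 stayed between 557 and 810 normalised counts over the 12 libraries. Its log2 difference at 3 h was 0.30 in cbfs-1 (95% interval −0.03 to 0.63) and 0.25 in WT (−0.08 to 0.58), the narrowest intervals among the 10 genes.

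ABI5, best known for holding back germination and early seedling growth under ABA, was the least abundant bZIP member and rose late. It had 14.5 and 23.7 normalised counts in cbfs-1 at 0 h, 49.2 and 34.9 after 3 h and 130 and 146 after 24 h, and in WT 12.01 and 32.5 at 0 h, 66.7 and 34.4 after 3 h and 221 and 159 after 24 h. The 24 h values of ABI5 lay above every earlier value in both genotypes. At 3 h its log2 differences of 1.12 in cbfs-1 and 1.23 in WT did not pass the test (adjusted p = 0.188 and 0.139). At 24 h ABI5 was higher than at 0 h by 2.83 in cbfs-1 (SE 0.46, adjusted p = 0.00105) and by 3.17 in WT (SE 0.46, adjusted p = 0.000514), and both calls held without any 1 library. Between 3 and 24 h it rose by 1.71 in cbfs-1 (adjusted p = 0.0151) and by 1.94 in WT (adjusted p = 0.00822). That later step rested on single libraries: the call was lost in cbfs-1 without 3 h replicate 2 (adjusted p = 0.0819), 24 h replicate 1 (0.0571) or 24 h replicate 2 (0.0751), and in WT without 3 h replicate 2 (0.0559) or 24 h replicate 1 (0.0580). The WT 3 h difference of ABI5 passed without WT 0 h replicate 2 (1.91, adjusted p = 0.0434).

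**Figure D2:**
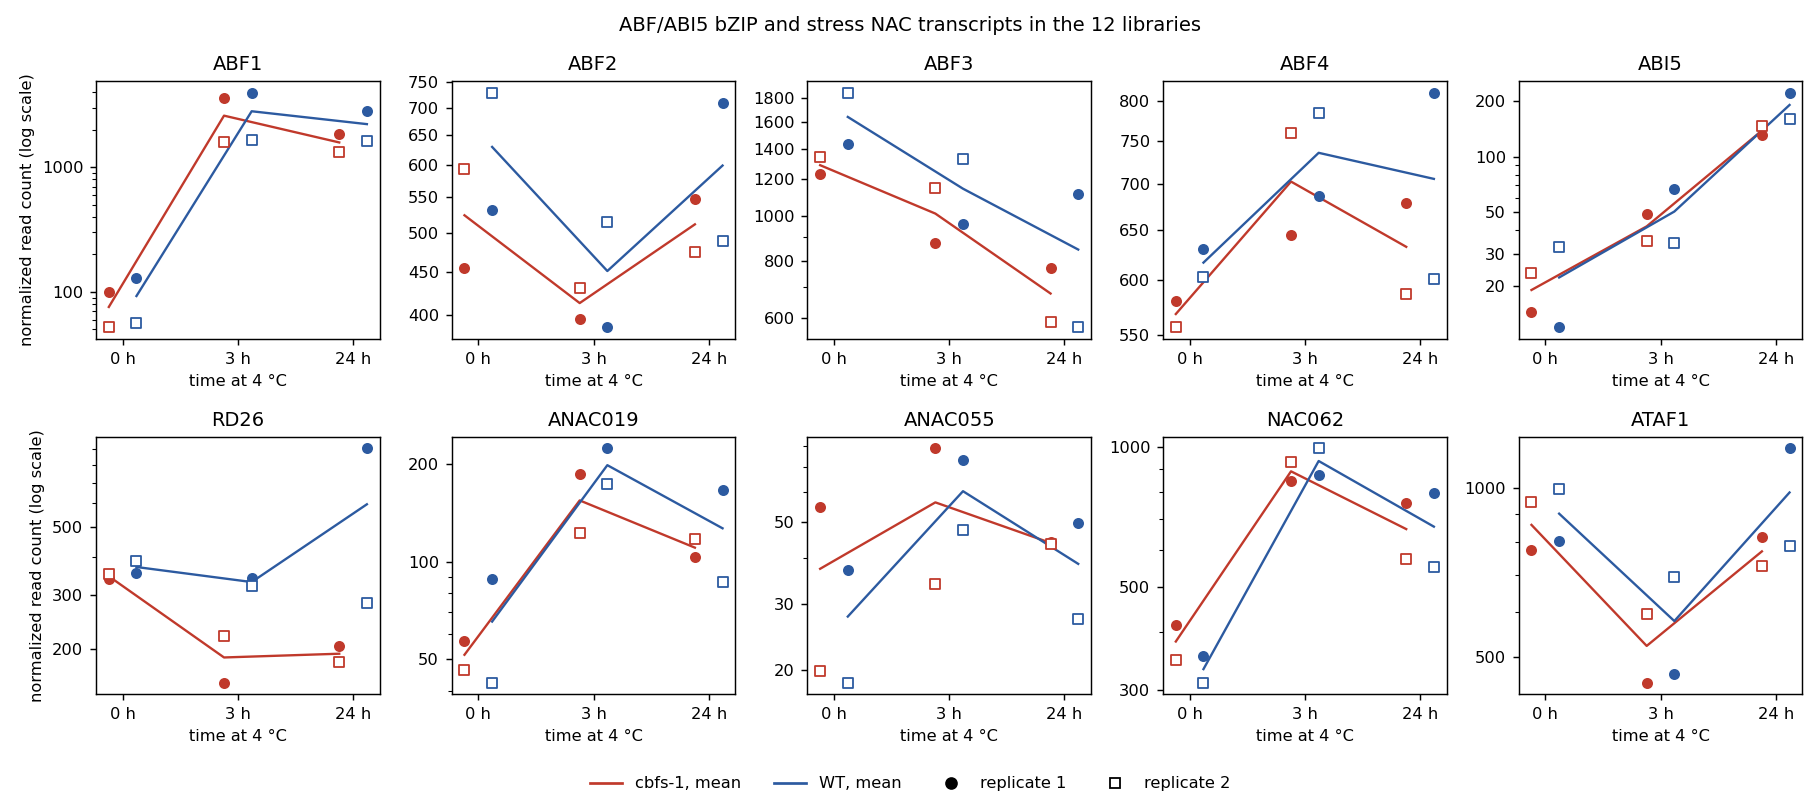
Normalised read counts of the 10 genes on log axes against hours at 4 °C, 1 panel per gene, with cbfs-1 in red and WT in blue, filled circles for replicate 1, open squares for replicate 2 and lines joining group means (n = 2). ABF1 lies below 130 at 0 h and above 1300 afterwards in both genotypes, while ABF4 stays between 557 and 810.

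NAC062, whose processed form is known to enter the nucleus and act on pathogenesis-related genes, rose in the cold with little spread. It had 415 and 349 normalised counts in cbfs-1 at 0 h, 844 and 932 after 3 h and 758 and 576 after 24 h, and in WT 355 and 311 at 0 h, 874 and 995 after 3 h and 797 and 554 after 24 h. Every cold-treated library exceeded every 0 h library, and at 3 h the cbfs-1 and WT values overlapped. NAC062 rose at 3 h by 1.22 on the log2 scale in cbfs-1 (SE 0.19, adjusted p = 0.00381) and by 1.49 in WT (SE 0.19, adjusted p = 0.00126), and at 24 h it was still higher than at 0 h, by 0.79 in cbfs-1 (adjusted p = 0.00717) and by 1.00 in WT (adjusted p = 0.00212). Leaving out cbfs-1 24 h replicate 1 ended the 24 h call in cbfs-1 (0.60, adjusted p = 0.0650), and the other 3 calls held without any 1 library. Between 3 and 24 h NAC062 differed by −0.42 in cbfs-1 and −0.49 in WT, and neither passed the test (adjusted p = 0.0966 and 0.0610), although the WT difference passed without WT 24 h replicate 1 (−0.75, adjusted p = 0.0193).

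ANAC019, a NAC factor of ABA and jasmonate responses, was several-fold less abundant and also highest at 3 h. It had 56.9 and 46.4 normalised counts in cbfs-1 at 0 h, 187 and 123 after 3 h and 103 and 118 after 24 h, and in WT 88.5 and 42.3 at 0 h, 224 and 174 after 3 h and 167 and 86.7 after 24 h. The 3 h values of ANAC019 exceeded all 0 h values, whereas at 24 h the lower WT library, at 86.7, fell within the WT 0 h range. ANAC019 rose at 3 h by 1.54 on the log2 scale in cbfs-1 (SE 0.39, adjusted p = 0.0369) and by 1.67 in WT (SE 0.39, adjusted p = 0.0238). At 24 h the difference from 0 h was 1.09 in cbfs-1 (adjusted p = 0.0409) and 0.96 in WT. The WT value was short of the threshold in limma (adjusted p = 0.0617) and past it in DESeq2 (adjusted p = 0.0436). Both cbfs-1 calls were lost whichever of their libraries was left out (adjusted p = 0.0509 to 0.246 at 3 h and 0.0823 to 0.158 at 24 h). The WT call at 3 h was lost without WT 0 h replicate 2 (1.15, adjusted p = 0.155) or WT 3 h replicate 1 (adjusted p = 0.152). The WT difference at 24 h passed without WT 0 h replicate 1 (1.49, adjusted p = 0.0168) or WT 24 h replicate 2 (adjusted p = 0.0262).

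ANAC055, a paralog of ANAC019, had 54.8 and 19.9 normalised counts in cbfs-1 at 0 h, 78.7 and 33.9 after 3 h and 44.2 and 43.5 after 24 h, and in WT 37.1 and 18.4 at 0 h, 73.3 and 47.5 after 3 h and 49.7 and 27.3 after 24 h. The WT values at 3 h lay above those at 0 h, but in cbfs-1 the times overlapped, and replicate 1 exceeded replicate 2 in 6 of 6 groups, by 1.02 to 2.76 times. The 3 h difference of ANAC055 was 0.63 on the log2 scale in cbfs-1 (95% interval −0.62 to 1.88, adjusted p = 0.576) and 1.14 in WT (−0.11 to 2.39, adjusted p = 0.258). With the replicate number as a block the WT rise passed the test (adjusted p = 0.0312), in a fit that called 10.5% of all genes higher, and the cbfs-1 difference did not (adjusted p = 0.212). How reads are split between ANAC019 and ANAC055 is uncertain, since the sources used here do not say how shared reads were counted.

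ATAF1, a NAC factor of drought and senescence, had its lowest values at 3 h in both genotypes. It had 776 and 944 normalised counts in cbfs-1 at 0 h, 449 and 596 after 3 h and 817 and 725 after 24 h, and in WT 806 and 995 at 0 h, 465 and 693 after 3 h and 1178 and 787 after 24 h. The 3 h values lay below all 0 h and 24 h values in both genotypes. The 3 h difference from 0 h was −0.73 on the log2 scale in cbfs-1 (95% interval −1.27 to −0.18, adjusted p = 0.107) and −0.66 in WT (−1.20 to −0.11, adjusted p = 0.133), short of the threshold. Between 3 and 24 h ATAF1 rose by 0.76 in WT (SE 0.24, adjusted p = 0.0304), and the cbfs-1 difference of 0.57 did not pass (adjusted p = 0.0843). The WT call was lost without WT 3 h replicate 1 (0.47, adjusted p = 0.201) or WT 24 h replicate 1 (0.47, adjusted p = 0.212).

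RD26 was the member whose 24 h level differed most between libraries. It had 339 and 353 normalised counts in cbfs-1 at 0 h, 156 and 221 after 3 h and 205 and 182 after 24 h, and in WT 355 and 387 at 0 h, 341 and 322 after 3 h and 905 and 284 after 24 h. All 4 cold-treated cbfs-1 libraries lay below the cbfs-1 0 h libraries, and WT 24 h replicate 1 stood more than 2-fold above every other library. No time comparison of RD26 passed the test: its difference from 0 h was −0.90 at 3 h and −0.84 at 24 h in cbfs-1 (adjusted p = 0.239 and 0.119), and −0.16 at 3 h and 0.45 at 24 h in WT (adjusted p = 0.863 and 0.386). Without WT 24 h replicate 2, RD26 in WT was called higher at 24 h than at 0 h (1.29, adjusted p = 0.00165) and than at 3 h (1.45, adjusted p = 0.00143), and without WT 24 h replicate 1 the signs of both differences turned, to −0.39 and −0.22.

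In limma without a block, 3 of the 10 genes rose at 3 h and none fell in either genotype (ABF1, ANAC019 and NAC062). Of all genes tested, 6.43% were called higher and 2.41% lower in cbfs-1, and 6.89% higher and 3.21% lower in WT. At 24 h against 0 h, 4 rose (ABF1, ABI5, ANAC019 and NAC062) and 1 fell (ABF3) in cbfs-1, where 24.9% of all genes were called higher and 23.3% lower. In WT 3 rose (ABF1, ABI5 and NAC062) and 1 fell (ABF3), where 25.7% were higher and 24.3% lower, so the total share of members called at 24 h is near the background. Between 3 and 24 h, 1 member rose in cbfs-1 (ABI5) and 2 in WT (ABI5 and ATAF1) and none fell in limma without a block, with a background of 21.3% higher and 21.4% lower in cbfs-1 and of 21.3% higher and 21.5% lower in WT. The median log2 change of the members at 3 h was 0.46 in cbfs-1 and 0.70 in WT, beside −0.02 over all genes in each genotype, and at 24 h it was 0.27 in cbfs-1 and 0.46 in WT, beside 0.000908 in cbfs-1 and −0.00329 in WT over all genes. The cold comparisons of 1 genotype share their libraries, 0 h libraries included. The series compared here has no seedlings kept at 22 °C for 3 or 24 h, so cold and elapsed time cannot be told apart.

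**Figure D3:**
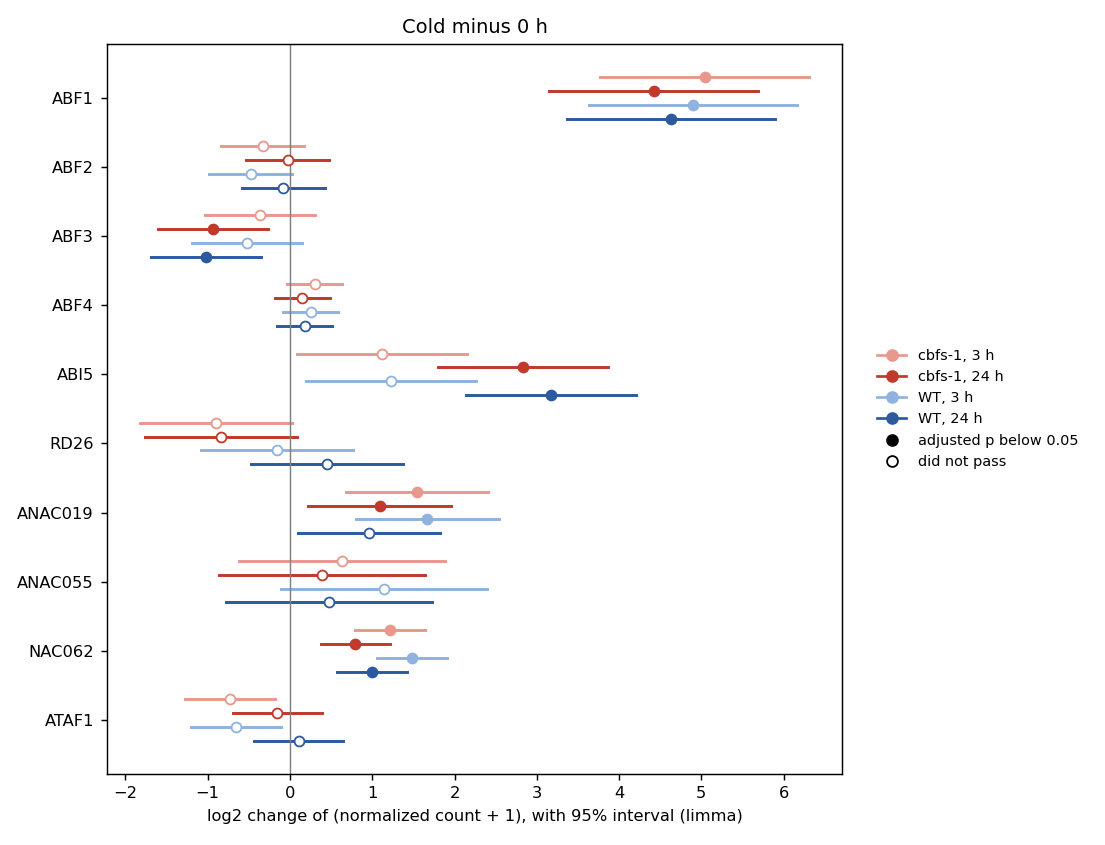
Log2 changes of the 10 genes from 0 h to 3 h and to 24 h at 4 °C in cbfs-1 and WT, with bars for 95% intervals from limma (n = 2 libraries per group) and filled symbols where the adjusted p was below 0.05. ABF1 lies near 5 in all 4 comparisons, ABI5 passes only at 24 h, and ABF2, ABF4, RD26 and ANAC055 have open symbols throughout.

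Whether the cold response of these genes differed in the cbfs-1 mutant was asked at each time. None of the 10 passed the limma test without a block for cbfs-1 against WT at 0 h, 3 h or 24 h, where 0.0387%, 0.0290% and 0.808% of all genes were called. At an unadjusted limma p below 0.05, 0, 0 and 1 of the 10 passed at these times, beside 677, 696 and 2154 of the 20666 genes tested. edgeR called none of the 10, and 8, 7 and 177 of all genes. DESeq2 called 1 of the 10, RD26 at 24 h, when it called 1.70% of all genes. The interaction, the cbfs-1 response minus the WT response, called none of the 10 at 3 h or 24 h with any of the 3 tools. In limma 0 members had an unadjusted p below 0.05, beside 309 of all genes at 3 h and 966 at 24 h. The limma backgrounds of adjusted calls were 0.00484% at 3 h and 0.00968% at 24 h. At these times edgeR called 1 and 2 of all genes, and DESeq2 3 and 84. The members' median difference between cbfs-1 and WT was −0.11 at 0 h, −0.15 at 3 h and −0.23 at 24 h, beside −0.00320, 0.000988 and 0.00619 over all genes.

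The intervals, from limma without a block, show how much the genotypes could differ in that fit. NAC062 differed between cbfs-1 and WT by −0.07 at 3 h (95% interval −0.49 to 0.35 on the log2 scale) and by −0.01 at 24 h (−0.43 to 0.42). For ABF4 the intervals were −0.40 to 0.26 at 3 h and −0.48 to 0.19 at 24 h. ABF1, whose replicate 1 exceeded its replicate 2 in every group, had the widest intervals, −1.37 to 1.17 at 3 h and −1.72 to 0.81 at 24 h. ABI5 had −1.24 to 0.83 at 3 h and −1.47 to 0.60 at 24 h. ANAC055 was nearly as wide as ABF1, with −1.44 to 1.07 at 3 h and −1.01 to 1.49 at 24 h. At 24 h the differences were −0.21 for ABF2 (−0.71 to 0.30), −0.25 for ABF3 (−0.92 to 0.42), −0.12 for ANAC019 (−0.99 to 0.74) and −0.32 for ATAF1 (−0.87 to 0.22). With the replicate number as a block, the SE of a genotype difference was 0.17 for ABF1 and 0.30 for ANAC055, against 0.56 for each without it. The intervals of these genes thus include a replicate offset that the block takes out. The fit with this 1 block called no member for cbfs-1 against WT at any time. A limma fit with separate replicate blocks for the 0 and 3 h and for the 24 h libraries called 2 members at 24 h. These were RD26 (adjusted p = 0.0142) and ABF1 (adjusted p = 0.0225), both lower in cbfs-1, where 6.08% of all genes passed. In that fit the pairing of 24 h libraries rests on a shared number only.

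RD26 came nearest to a genotype difference. Its values did not overlap between genotypes at 3 h, with 156 and 221 in cbfs-1 and 341 and 322 in WT, nor at 24 h, with 205 and 182 in cbfs-1 and 905 and 284 in WT. The share of all genes without such overlap was not counted, here or for the times compared above. With 2 libraries a group, non-overlap is therefore given as a description only. The RD26 difference was −0.84 at 3 h (95% interval −1.76 to 0.09, adjusted p = 1.00) and −1.39 at 24 h (SE 0.41, 95% interval −2.31 to −0.47, adjusted p = 0.211), and the interaction at 24 h was −1.29 (−2.59 to 0.02, adjusted p = 1.00). DESeq2 put the RD26 difference at 24 h at −1.62 and called it (adjusted p = 0.00594), and edgeR gave −1.62 without calling it (adjusted p = 0.147). The 24 h value turned on the WT replicates: without WT 24 h replicate 1 it was −0.55 (adjusted p = 0.492), and without WT 24 h replicate 2 it was −2.22 (adjusted p = 0.00176), with an interaction of −2.12 (adjusted p = 0.0201).

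**Figure D4:**
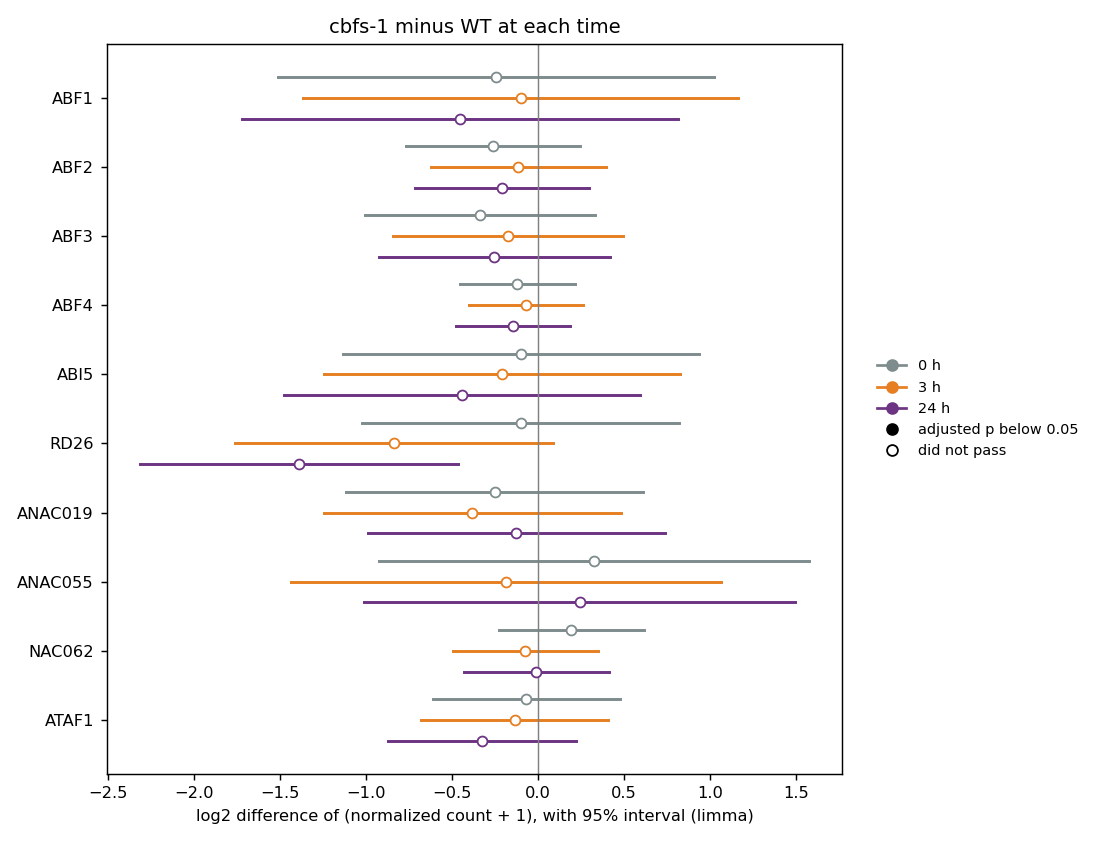
Log2 difference, cbfs-1 minus WT, of the 10 genes at 0, 3 and 24 h, with bars for 95% intervals from limma (n = 2 libraries per group). All symbols are open because no adjusted p fell below 0.05, and RD26 at 24 h, at −1.39, is the one whose interval does not include 0.

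The library in which RD26 was high, WT 24 h replicate 1, also exceeded WT 24 h replicate 2 in genes controlled through ABREs. That list holds 10 late-embryogenesis, dehydrin and stress genes, of which 8 were tested. At 24 h RD29B, a hydrophilic stress protein, had 36.6 and 32.6 normalised counts in cbfs-1 and 913 and 179 in WT. LEA4-5, a late-embryogenesis protein, had 152 and 101 in cbfs-1 and 1449 and 233 in WT. In both genes WT replicate 1 stood about 5 to 6 times above WT replicate 2, and both WT values exceeded both cbfs-1 values. For RD29B the WT replicates were also far apart earlier, at 190 and 51.0 at 0 h and 179 and 45.0 at 3 h. For LEA4-5 they were closer, at 64.4 and 58.6 at 0 h and 76.6 and 57.3 at 3 h. At 24 h the membrane protein TSPO had 24.8 and 11.8 in cbfs-1 and 130 and 21.4 in WT, and the dehydrin RAB18 97.0 and 164 in cbfs-1 and 306 and 163 in WT. The lipid-droplet protein RD20 had 134 and 121 in cbfs-1 and 422 and 150 in WT. In WT at 0 h TSPO had 17.5 and 14.1, RAB18 732 and 183, and RD20 384 and 609. RAB18 and RD20 were thus not at their highest in WT 24 h replicate 1. All 8 tested genes of the list were higher in WT 24 h replicate 1 than in replicate 2, with a median log2 difference of 1.20, beside 0.01 over all genes. The same count was 6 of 8 in cbfs-1 at 24 h, with a median of 0.24. At 3 h it was 5 of 8 in cbfs-1 (median 0.21) and 7 of 8 in WT (0.69), and at 0 h 4 of 8 in cbfs-1 (−0.13) and 6 of 8 in WT (0.21), so replicate 1 was the higher for most of the list in every WT group. Their part in the RD26 result was not tested.

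**Figure D5:**
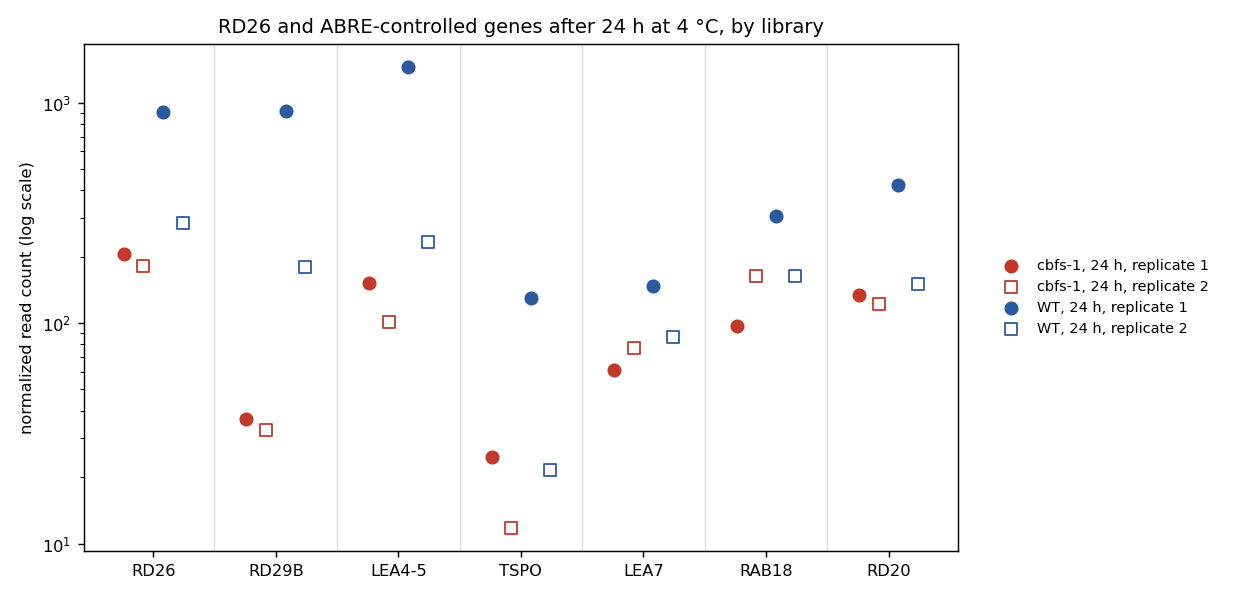
Normalised read counts at 24 h of RD26 and 6 genes of the ABRE list on a log axis, each library a point, cbfs-1 in red left of WT in blue, filled circles for replicate 1 and open squares for replicate 2. WT replicate 1 lies above WT replicate 2 in all 7 genes, with RD26 at 905 against 284 and RD29B at 913 against 179.

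Within the ABRE list the genotype comparison called 1 of 8 genes lower in cbfs-1 at 3 h (RD29A) and 2 of 8 at 24 h (RD29A and ADH1). Of all genes, 0.0290% and 0.808% were called in either direction. The list was chosen with earlier results of these data known, so these counts are a description and not a test of the list. RD29A, whose promoter is known to hold DRE elements besides an ABRE, had 11588 and 9031 normalised counts in cbfs-1 at 24 h and 194697 and 107678 in WT, and was lower in cbfs-1 by 2.77 at 3 h (adjusted p = 0.0254) and by 3.82 at 24 h (adjusted p = 0.000946). ADH1, alcohol dehydrogenase, had 9931 and 7978 in cbfs-1 and 30292 and 20932 in WT at 24 h, and was lower in cbfs-1 by 1.50 at that time (adjusted p = 0.0212). RD29B (−3.51, adjusted p = 0.124) and LEA4-5 (−2.22, adjusted p = 0.197) did not pass in limma and passed in DESeq2 (adjusted p = 0.00585 and 0.0183). In the cold RD29A and ADH1 rose at 24 h in both genotypes. LEA7 rose in cbfs-1 (1.38, adjusted p = 0.0196), LEA4-5 rose in WT (3.22, adjusted p = 0.00286), and RD20 fell in cbfs-1 (−1.86, adjusted p = 0.0101). The seed genes EM1 and EM6, which ABI5 is known to activate in embryos, stayed at 0 to 3.28 and 0 to 6.47 normalised counts, below the filter.

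For the rest of the ABA pathway, the counts at 24 h stand beside 24.9% of all genes called higher and 23.3% lower in cbfs-1 and 25.7% higher and 24.3% lower in WT, and those at 3 h beside 6.43% called higher in cbfs-1 and 6.89% in WT. Of 9 ABA receptors tested, 7 fell in cbfs-1 and 5 in WT between 0 and 24 h and none rose, with a median of −0.79 in cbfs-1 and −0.84 in WT. PYR1 fell by 1.28 in cbfs-1 (adjusted p = 0.000308) and by 1.42 in WT (adjusted p = 0.000168), and PYL7 by 1.40 in cbfs-1 and 1.09 in WT. PYL6 was the receptor that rose, at 3 h, by 1.41 in cbfs-1 (adjusted p = 0.0266) and by 1.48 in WT (adjusted p = 0.0193). Of 7 clade A PP2C phosphatases tested, which inhibit the kinases, ABI1 and ABI2 rose and HAI1 fell at 24 h in both genotypes, by 1.32, 0.87 and −1.80 in cbfs-1 and by 1.20, 1.17 and −1.95 in WT, a share of the list near that of all genes. Of the 6 kinases that act on ABF proteins, 4 rose at 24 h in each genotype and none fell: SNRK2.2, OST1, CPK4 and CPK11. The largest of these was CPK4, at 1.07 in cbfs-1 and 1.21 in WT. At 3 h CPK4 and CPK32 rose in both genotypes, CPK32 by 0.68 in cbfs-1 (adjusted p = 0.0136) and by 0.95 in WT (adjusted p = 0.00237).

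Of 5 tested genes for partners and turnover of ABI5, AFP2 and TMAC2, whose proteins bind ABI5 and hold it down, rose at 3 h in both genotypes, AFP2 by 1.11 in cbfs-1 and 1.20 in WT and TMAC2 by 1.09 in cbfs-1 and 1.01 in WT. In cbfs-1 AFP3 rose as well (0.73, adjusted p = 0.0267). KEG, the ubiquitin ligase that turns over ABI5, rose at 24 h by 0.57 in cbfs-1 (adjusted p = 0.00152) and by 0.55 in WT (adjusted p = 0.00175), when the ABI5 transcript was at its highest. Of 3 tested group A bZIP relatives, EEL, a repressor of the Em genes, fell at 24 h by 1.49 in cbfs-1 (adjusted p = 0.000135) and by 0.97 in WT (adjusted p = 0.00114), opposite in sign to ABI5. AREB3 rose in WT (0.38, adjusted p = 0.0188), and its difference from the cbfs-1 response was not called.

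Among other NAC genes, 6 of 11 membrane-tethered members rose at 24 h in each genotype and none fell, with medians of 0.58 in cbfs-1 and 0.71 in WT. Of all genes, 24.9% in cbfs-1 and 25.7% in WT were called higher at that time, and the share called in either direction is close to that of all genes. NAC013 rose by 1.60 in both genotypes, and NAC053 by 1.48 in cbfs-1 and 1.43 in WT. At 3 h, when NAC062 was highest, TIP was the one of these that rose in WT (1.42, adjusted p = 0.00104), and TIP, NAC053 and NAC017 rose in cbfs-1 (1.35, 0.53 and 0.31). TIP then fell between 3 and 24 h, by 1.08 in cbfs-1 and 1.10 in WT. Of 9 other stress and ATAF-type NAC genes, NAC035 and NAC047 rose at 3 h in both genotypes, NAC035 by 1.65 in cbfs-1 and 1.52 in WT. In cbfs-1 1 gene of this list fell at 3 h, and in WT none did. Of all genes, 6.43% were called higher and 2.41% lower at 3 h in cbfs-1, and 6.89% higher and 3.21% lower in WT. ATAF2, a close relative of ATAF1, rose at 24 h by 1.19 in cbfs-1 (adjusted p = 0.00223) and 1.44 in WT (adjusted p = 0.000731), and NAP, a senescence regulator, fell by 1.95 in cbfs-1 and 1.38 in WT.

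Genes reported downstream of the NAC members gave mixed results. PR5, a pathogenesis-related gene of the NAC062 list, rose at 24 h by 2.35 in cbfs-1 (adjusted p = 6.1e-05) and by 1.94 in WT (adjusted p = 0.000139), while PR1 and PR2 did not pass between 0 and 24 h in either genotype. Between 3 and 24 h PR1, PR2 and PR5 rose in cbfs-1, by 1.33, 1.44 and 1.87, when 21.3% of all genes were called higher in each genotype. In WT PR5 rose by 1.22 over the same hours (adjusted p = 0.00213), and the differences of PR1 and PR2, 0.18 and 0.15, did not pass (adjusted p = 0.788 and 0.796). Whether these steps differed between the genotypes was not tested. Of 7 salicylate and jasmonate genes listed for ANAC019, ANAC055 and RD26, 1 rose and 3 fell at 24 h in each genotype, a total share near that of all genes (24.9% higher and 23.3% lower in cbfs-1, 25.7% higher and 24.3% lower in WT). VSP2, a jasmonate-induced storage protein, fell by 1.48 in cbfs-1 and 1.62 in WT, and ICS1, the salicylate synthesis enzyme, by 0.84 in cbfs-1 and 1.01 in WT. BSMT1, a salicylate methyltransferase, rose in both, at no more than 26.3 normalised counts. Of 8 chlorophyll breakdown and senescence genes, none passed at 3 h in either genotype, and at 24 h 1 rose and 2 fell in cbfs-1 and 2 rose in WT, NYC1 in both, by 0.86 in cbfs-1 and 0.96 in WT. Apart from RD29A and ADH1, no tested gene of any list differed between cbfs-1 and WT at any time in limma.

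Per kb of exon, which allows levels of different genes to be set side by side, the order of the 10 genes changed with time. At 0 h in cbfs-1 ABF3 was at 548 ± 33.4 and ATAF1 at 520 ± 71.8 normalised counts per kb (SD, n = 2), ahead of ABF4 at 282 ± 8.34, ABF2 at 228 ± 43.0, NAC062 at 195 ± 23.6 and RD26 at 194 ± 5.44, with ABF1 at 44.7 ± 19.7, ANAC019 at 37.9 ± 5.46, ANAC055 at 24.2 ± 16.03 and ABI5 at 9.83 ± 3.34. Among neighbours in this order, ATAF1 and ABF4, ABF4 and ABF2, and RD26 and ABF1 were further apart than the larger of their SDs, and the other pairs were not. At 3 h ABF1 came first, at 1532 ± 828 in cbfs-1 and 1661 ± 958 in WT, and NAC062 (452 ± 31.4 in cbfs-1 and 476 ± 43.7 in WT) and ABF3 (430 ± 83.9 in cbfs-1 and 487 ± 111 in WT) followed within their SDs of each other. At 24 h ABF1 was again first, at 934 ± 211 in cbfs-1 and 1310 ± 500 in WT, and ABI5, at 71.2 ± 5.63 in cbfs-1 and 97.9 ± 22.7 in WT, had passed ANAC055.

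Across the 12 libraries, which share their groups and replicates, pairs of members differed in how closely they moved together, and no grouping was computed. The Pearson correlation of log2(value + 1), given as a description, was 0.921 between ABF1 and NAC062, 0.911 between ABF1 and ANAC019, 0.891 between ANAC019 and NAC062 and 0.921 between ABF2 and ATAF1. ABF1 correlated less closely with ABI5 (0.692), ANAC055 (0.663) and ABF4 (0.632), and negatively with ABF2, ABF3, RD26 and ATAF1. Between ABF4 and NAC062 the correlation was 0.78. The lowest of all pairs was −0.719, between ABF3 and ABI5. RD26 correlated with ANAC019 and ANAC055, its close relatives, at −0.103 and −0.178, whereas ANAC019 and ANAC055 correlated at 0.791.

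Among genes with a mean of at least 50 normalised counts, the pattern most like ABF1 over the 12 libraries was that of AT1G56300 (r = 0.996), followed by FKF1 (0.993) and AT5G47060 (0.992). FKF1 ranged from 3.26 to 5790 normalised counts. NAC062 was most like TET8 (0.995), HSF A4A (0.989) and AT5G42050 (0.984), and ABI5 most like AT5G66052 (0.989), MAP3KA (0.988) and AT3G59800 (0.981). ATAF1 was nearest to AT5G43150 (0.979), ABF3 to AT2G36810 (0.958), ANAC019 to AT1G29670 (0.968), ABF2 to ABCG12 (0.950) and ANAC055 to PKT3 (0.947). RD26 and ABF4 had the least close neighbours, ML5 (0.924) and SUO (0.917), and the second for ABF4 was NCED3 (0.904), the ABA synthesis enzyme.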

How the data were processed

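RNA of 12 seedling libraries was sequenced, 2 per group. The authors deposited 1 table of signal values for 24616 genes, counts normalised per library; per the submitters' processing notes the tools were HTSeq 0.6.0, TopHat2 2.1.0, DESeq2 (no version given) and Cufflinks 2.2.1, with TAIR10. The sources used here do not give the strand setting or the treatment of multi-mapping reads. Every value was a whole multiple of its library's smallest value within 0.001 (100% of values), which returned reads of 16849042 to 22800552 per library and size factors of 0.914 to 1.22.

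The 20666 genes with a normalised count of at least 10 in at least 2 libraries were tested. limma 3.58.1 (R 4.3.3), with a mean-variance trend, was fitted to log2(value + 1), a scale that understates changes of low genes, with 6 group means over the 12 libraries (6 residual degrees of freedom) and 11 contrasts. Calls needed a Benjamini-Hochberg adjusted p below 0.05 over all genes tested in a contrast. Tested on simulated counts for WT 3 h against 0 h over 20545 genes, the procedure recovered 66% of 100 2-fold and 99% of 100 4-fold differences, with 9 false calls. The simulated libraries were independent, with no offset shared by replicate number, and the changed genes were drawn from those above a low-expression cut-off. These shares therefore do not give the power for single members. edgeR 4.0.16 (quasi-likelihood, TMM) and DESeq2 1.42.0 on the recovered reads, other filters and pseudocounts, a replicate block, fits on only the groups compared and the omission of each library were the alternatives.

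The labels give replicate numbers without saying what they share. The correlation of same-numbered libraries' deviations from their group means was 0.334 to 0.565 in the 6 pairs among 0 h and 3 h groups and 0.0428 to 0.242 in the 9 pairs with a 24 h group, so the numbers were taken to pair libraries between 0 and 3 h, on the strength of the data alone. All 10 members were named. The members and the 15 lists (97 genes, 96 in the table, 83 tested) were chosen with earlier results of these data known, and from each list up to 4 called genes with the largest log2 change are named per comparison. Promoter windows of 250 bases, gene spans and exon lengths come from RefSeq TAIR10.1, and locus identifiers were paired with symbols through its gene table, all 10 members matching. Python 3.11.15, pandas 2.3.3 and matplotlib 3.10.9 were used for the tables and plots.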

Additional observations from a re-analysis of the deposited data

How the results depend on the processing

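No result changed sign while called. Of the values of single members, 1345 kept their side of the threshold and their sign, 41 passed it only in an alternative, 25 lost it and 99 changed sign with neither value called; filters, pseudocounts and edgeR are among the settings that moved no count by more than 1.5 times. DESeq2 called 1 member in cbfs-1 against WT at 24 h (RD26), against 0 in limma. With the replicate block, 4 members passed in WT and 2 in cbfs-1 between 3 and 24 h, against 2 in WT and 1 in cbfs-1 without it (51.1% and 50.8% of all genes passed), and the added calls were falls, of NAC062 (adjusted p = 0.0301) and ANAC019 (0.0475) in WT and of ABF1 in cbfs-1 (0.0125); of the 3 h comparisons the replicate block changed 1 call (ANAC055 in WT), and at 24 h against 0 h it changed 1 (ANAC019 in WT, adjusted p = 0.0112). With separate replicate blocks for the 0 and 3 h and for the 24 h libraries, the pairing of 24 h libraries rests on a shared number only. The counts were then 7 in cbfs-1 and 7 in WT at 3 h, where 22.7% and 24.9% of all genes passed. Between 3 and 24 h they were 6 in cbfs-1 and 7 in WT (57.3% and 57.0%), and 2 for cbfs-1 against WT at 24 h (6.08%). These 2 were RD26 (adjusted p = 0.0142) and ABF1 (0.0225), both lower in cbfs-1. The added 3 h calls in cbfs-1 were falls of ABF2 (0.0417), RD26 (0.0372) and ATAF1 (0.000555) and a rise of ABF4 (0.0419). In WT they were falls of ABF2 (0.00646), ABF3 (0.00976) and ATAF1 (0.000942) and a rise of ANAC055 (0.00990). At 24 h against 0 h this fit called 6 members in cbfs-1 and 5 in WT (61.5% and 63.3%). A fit on only the groups compared called 3 members in cbfs-1 and 1 in WT between 3 and 24 h, and lost ANAC019 in WT at 3 h (adjusted p = 0.0922) and ATAF1 in WT between 3 and 24 h (adjusted p = 0.0660); the causes were not tested. Leaving out 1 library at a time gave 2 to 4 members in cbfs-1 and 2 to 3 in WT at 3 h, 3 to 6 in cbfs-1 and 3 to 5 in WT at 24 h, 0 to 1 in cbfs-1 and 1 to 3 in WT between 3 and 24 h, 0 to 0 for cbfs-1 against WT at 0 h and at 3 h, 0 to 1 at 24 h, and 0 to 0 and 0 to 1 for the interaction at 3 h and 24 h. The group left with a lone library was assumed to vary like the others. With 2 libraries a group, the self-test above, which held no shared replicate offset, recovered 66% of 2-fold differences. Without a block the SE of a log2 difference was largest for ABF1 (0.56) and ANAC055 (0.56), and with the replicate block theirs was 0.17 and 0.30.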
